A study of Mus musculus with 11 samples.

Results

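The serpins are a family of proteins most of which trap serine proteases, and 55 of their genes were represented on the arrays, of 21337 gene names in all, by 73 of 41174 distinct probes. Members were all probes whose gene name on the array began with Serpin followed by a clade letter from a to i and a number. Clade a had 20 genes, clade b had 25, clades e, f and i had 2 each, and clades c, d, g and h had 1 each. Liver RNA of newborn mice on a hybrid 129 x C57BL/6 background was hybridised with Cy3 in 1 colour. All pups carried Rosa26-lsl-NICD, an allele from which the active intracellular domain of Notch is made once Cre has removed a stop cassette. Control pups carried that allele alone, and mutant pups carried AFP-Cre in addition, in which the alpha-fetoprotein promoter drives the recombinase. There were 2 controls and 3 mutants on the day of birth (day 0), and 3 controls and 3 mutants at day 2. In the absence of a group with AFP-Cre only, an effect of the recombinase cannot be told apart from that of NICD. Whole liver was measured, so fewer cells of a type and less RNA per cell cannot be told apart either.

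Most serpins present a reactive loop that a target protease cleaves, after which protease and inhibitor stay locked together in an inactive complex. Hepatocytes secrete much of the plasma complement of the family, which restrains clotting, fibrinolysis, complement and neutrophil proteases. A few members have no protease target and work instead as hormone carriers or as a chaperone for collagen. Clade b members mostly stay inside cells, including leukocytes and squamous epithelium.

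A probe's level is given as log2 of its signal over the array's 75th percentile, and differences are in log2 units with the standard error of a limma fit to all 11 arrays. Levels of different probes are not comparable. A difference passed when its p-value, adjusted over the 15947 genes tested, was below 0.05. The share of spots well above background ran from 63.3% to 68.6%. On 1 array, mutant day 0 replicate 3, 604 genes lay at least 2-fold above and 470 at least 2-fold below every other array, against at most 66 in either direction on any other. That array correlated at 0.952 and 0.954 with its group, whereas other arrays of 1 group correlated at 0.983 or more. On every slide each position held 1 group, so position on the slide and group cannot be told apart. Results that the deviating array changes are given with and without it. By 4 Y-linked genes, both day 0 controls were male and all 3 day 0 mutants female, while day 2 groups each had 1 male with 2 females. Sex and genotype therefore cannot be told apart at day 0. The tissue label was checked against 10 hepatocyte markers, all of them tested, whose mean level ran from 6.58 to 6.91 on control arrays and from 5.84 to 6.23 on mutant arrays. The labels do not say more than that the arrays hold separate samples, so p-values measure the spread between these samples.

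The first pair of probes below is shown because near-identical gene copies limit what they can tell apart, and the second pair because each reads 1 gene whose result is given further on. Each is 60 bases long, read from the deposited array files and written from 5′ to 3′ with no base singled out in capitals.
Serpina1b: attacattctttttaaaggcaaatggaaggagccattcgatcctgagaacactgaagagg
Serpina1c: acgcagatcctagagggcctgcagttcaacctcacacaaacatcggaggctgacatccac
Serpine2: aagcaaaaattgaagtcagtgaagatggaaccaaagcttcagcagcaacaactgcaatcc
Serping1: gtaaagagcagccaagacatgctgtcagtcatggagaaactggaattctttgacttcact
Serpina1b, Serpina1c and Serpina1d are mouse copies of the gene for alpha-1-antitrypsin, the main plasma inhibitor of neutrophil elastase. The Serpina1c probe is assigned to 4 genes of the group (Serpina1b, Serpina1c, Serpina1d and Serpina1e), and the Serpina1d probe to 3 of them. The Serpina1b probe matched no listed accession and carries the gene name of the array design. These copies are therefore reported as readings of the group. The Serpine2 and Serping1 probes each have 1 assigned gene.

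Of the 55 genes, 40 had a probe that was well above background throughout at least 1 group and were tested. They comprised 18 genes of clade a, 12 of clade b, 2 each of clades e, f and i, and the sole member of clades c, d, g and h. The 15 genes that did not pass this filter were Serpina12, Serpina1f, Serpinb11, Serpinb12, Serpinb13, Serpinb3a, Serpinb3b, Serpinb3d, Serpinb7, Serpinb8, Serpinb9b, Serpinb9c, Serpinb9d, Serpinb9f and Serpinb9g. All but 2 of them belong to clade b.

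The comparison of mutants with controls over both days, with equal weight for each day, asks which serpins differ in livers with activated Notch. Serpina6 rose 12.9-fold, and Serpinh1, Serpinb6a, Serpinb6c and Serpine2 rose by smaller amounts, while 8 genes fell, all of them coding for secreted plasma proteins. Serpina1b and Serpina1c, 2 of the 8, are readings of 1 group of copies, whose Serpina1d probe did not pass (-0.39). In total 13 of 40 passed, beside 15.7% of all genes tested. The 5 rises stood beside a background of 8.79%, and the 8 falls beside 6.93%. The median difference of the tested serpins was -0.49, against -0.05 over all genes. Clade a had 1 rise and 3 falls among 18 genes with a median of -0.60, and clade b had 2 rises and no fall among 12 with a median of -0.39. All 5 genes of clades c, d, f and g fell. The sole gene of clade h rose, Serpine2 of clade e rose, and neither gene of clade i passed. Of the 13 genes, 12 differed in 1 direction in all 5 pairs of arrays from the same slide and day, and the exception was Serpine2. Mutant day 0 replicate 3 had no control of its day on its slide and is in none of these pairs. The genes were picked by passing this comparison on the same arrays, so their shared direction is no further support. The share of all genes with 1 direction is not given. With slide as a block 12 of the 13 passed, and Serpine2 missed the threshold (0.62, adjusted p = 0.0706).

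At day 0, 3 serpins passed, beside 2.3% of all genes (1.59% higher and 0.702% lower), namely Serpina6 and Serpinh1 (higher) and Serpina1b (lower). The median over the tested serpins was -0.34. The 2 genotypes did not overlap at day 0 for 18 of 40 serpins, 6 higher and 12 lower in mutants, beside 31.8% of all genes (16.7% higher and 15% lower). At day 2, 14 serpins passed, 5 higher and 9 lower, beside 16.2% of all genes (9.63% higher and 6.57% lower), with a median of -0.69 against -0.10 over all genes. The same 13 genes as over both days were among them, with Serpinb3c in addition. The genotypes did not overlap for 25 of 40, 5 higher and 20 lower, beside 45.4% of all genes (20.8% higher and 24.6% lower). The plot of differences by clade shows that the day 2 rises are Serpina6, Serpinb6a, Serpinb6c, Serpine2 and Serpinh1. The falls at day 2 depended on how arrays were scaled. After quantile normalization 5 serpins were higher and 2 lower, and in the authors' deposited table of RMA values 5 were higher and 3 lower. Without control day 2 replicate 1 or 2, 9 and 7 serpins passed, and without mutant day 2 replicate 1, 2 or 3 the counts were 9, 7 and 9. The share of all genes called in those alternative settings is not given.

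**Figure D1:**
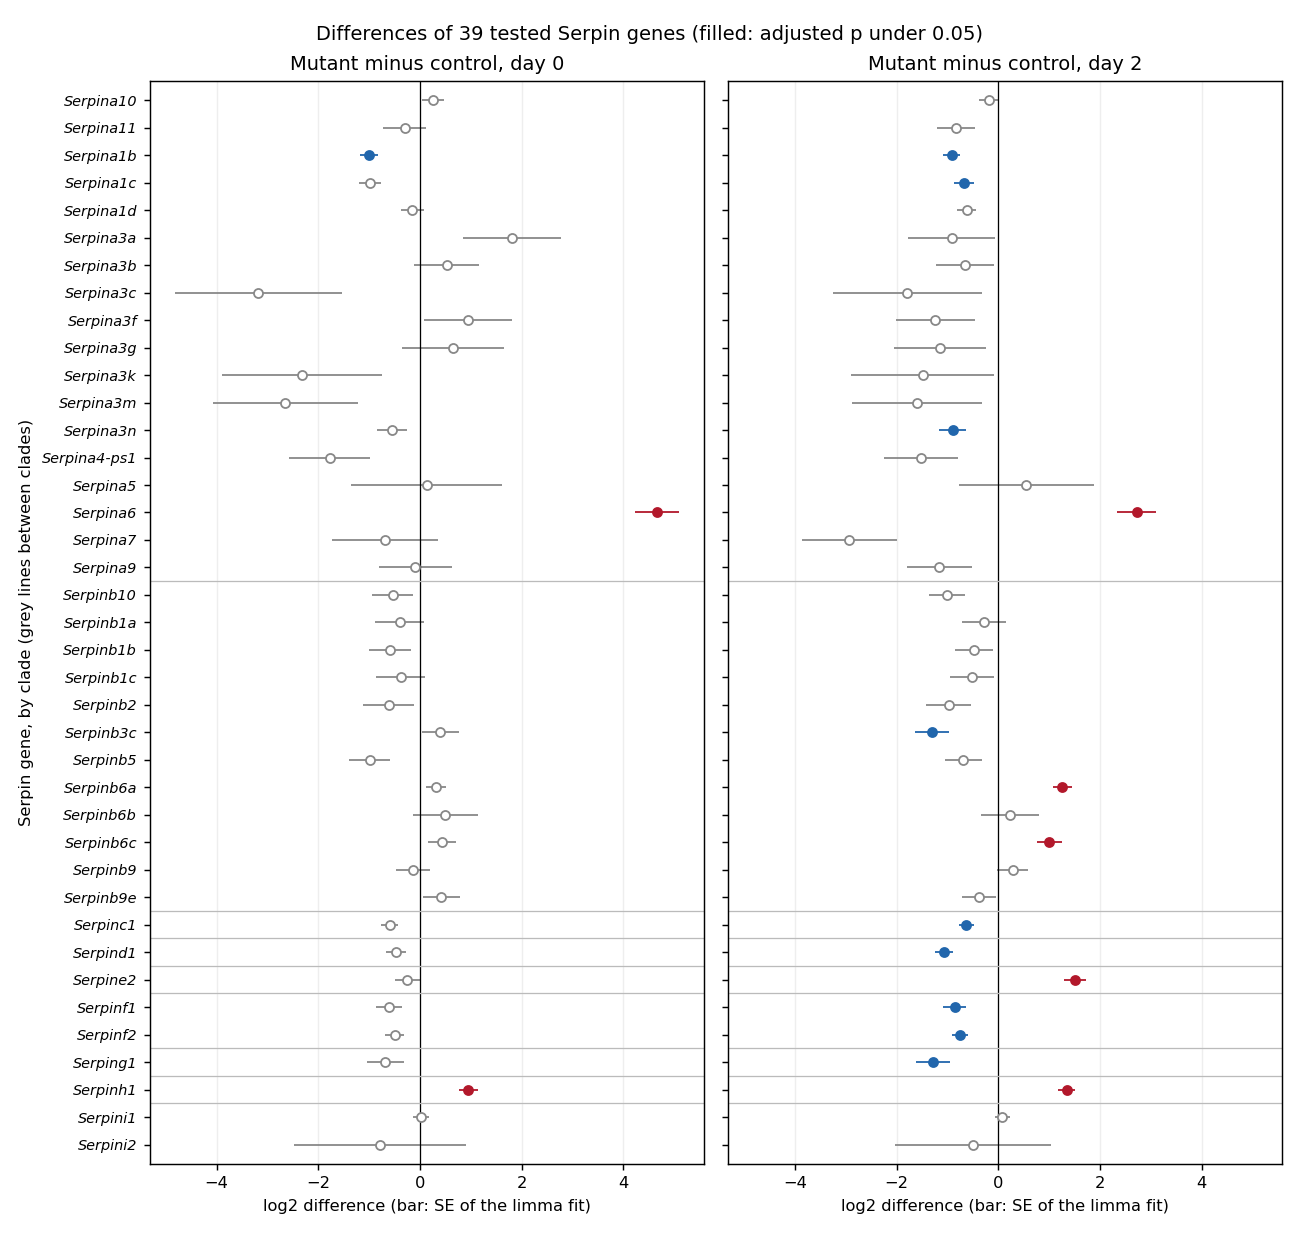
Mutant minus control differences in log2 units at day 0 (left) and day 2 (right) for 39 of the 40 tested Serpin genes, grouped by clade, with the standard error of the limma fit as a bar and filled points for an adjusted p under 0.05. At day 0, 3 points are filled, and at day 2, 14 are, with Serpina6 farthest to the right on both days.

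Serpina6 encodes corticosteroid-binding globulin, the plasma carrier of glucocorticoids, and has lost inhibitory function. Its probe lies on chromosome 12 at 104047720 to 104047779 (mm8, minus strand). The level was 2.28 and 2.56 in day 0 controls, 7.47, 7.66 and 6.11 in day 0 mutants, 1.78, 1.77 and 1.54 in day 2 controls, and 3.93, 4.76 and 4.56 in day 2 mutants. Every mutant array lay above every control array of either day, and all day 0 mutants lay above all day 2 mutants. The gene was 25.3-fold higher in mutants at day 0 (4.66 ± 0.43 SE, adjusted p = 0.00119) and at day 2 the excess was 6.59-fold (2.72 ± 0.38 SE, adjusted p = 0.00163). Within slides 1 and 2 at day 0 the differences were 5.19 and 5.11, and within slides 1, 2 and 3 at day 2 they were 2.15, 2.99 and 3.02. With sex as a covariate the day 0 difference was 4.18 (adjusted p = 0.0447). Sex did not vary within either day 0 group, so that sex term rests on day 2 arrays alone. It cannot separate sex from genotype at day 0. The gene passed over both days, at day 0 and at day 2 in each of the 22 alternative settings.

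The excess of Serpina6 was smaller at day 2 than at day 0 by 1.94 log2 units, with a 95% interval of the difference from -3.22 to -0.65, but this did not pass after adjustment (limma, adjusted p = 0.195). Without mutant day 0 replicate 3 it did (-2.43 ± 0.33 SE, adjusted p = 0.0205). Within mutants the level fell 6.34-fold from day 0 to day 2 (adjusted p = 0.00323). The decline in controls was -0.73 ± 0.43 (SE, adjusted p = 0.289).

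Serpina7 encodes thyroxine-binding globulin, the other hormone carrier of the clade, and lies on chromosome X, apart from the remaining clade a genes. It read 0.39 and 0.47 in day 0 controls, -1.52, -1.38 and 2.12 in day 0 mutants, 3.39, 3.12 and 1.05 in day 2 controls, and 0.04, -0.72 and -0.57 in day 2 mutants. The day 2 groups did not overlap, and at day 0 the third mutant lay above both controls while the other 2 lay below. Over both days the difference was -1.81 ± 0.70 (SE, adjusted p = 0.117), and at day 2 it was -2.93 ± 0.93 (SE, adjusted p = 0.0616). Without mutant day 0 replicate 3 the gene passed over both days (-2.41, adjusted p = 0.00516) and at day 2 (-2.93, adjusted p = 0.00551). The day 2 difference itself did not change, only the spread pooled over the groups. The 2 hormone carriers thus stood on opposite sides of their controls at day 2.

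Among 11 genes for other hormone carriers and for receptors and enzymes of thyroid hormone and glucocorticoids, none rose and 2 fell over both days (5 without mutant day 0 replicate 3), with a median of -0.42. Hsd11b1, which regenerates active glucocorticoid in liver, fell by 1.75 ± 0.40 (SE, adjusted p = 0.017), and the glucocorticoid receptor gene Nr3c1 fell by 0.42 ± 0.09 (SE, adjusted p = 0.0156). Tsc22d3, a gene induced by glucocorticoids, stood at -0.45 (adjusted p = 0.0632).

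The protease inhibitors that hepatocytes release into plasma were mostly lower in mutants. For Serpina1b (chromosome 12, 104131529 to 104133028, mm8) the level was 7.07 and 7.44 in day 0 controls against 6.24, 6.37 and 6.17 in day 0 mutants, and 7.83, 7.53 and 7.41 in day 2 controls against 6.74, 6.52 and 6.75 in day 2 mutants. The groups did not overlap on either day. The Serpina1b reading fell 1.94-fold over both days (-0.96 ± 0.12 SE, adjusted p = 0.000946), 1.99-fold at day 0 and 1.89-fold at day 2. With slide as a block the day 0 fall was -0.96 (adjusted p = 0.0776). The day 2 fall did not pass after quantile normalization (-0.50, adjusted p = 0.0726) or in the authors' deposited RMA table (-0.55, adjusted p = 0.0583).

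The Serpina1c probe, which reads 4 copies, gave 6.75 and 7.0 in day 0 controls, 5.73, 6.20 and 5.75 in day 0 mutants, 6.53, 7.16 and 6.78 in day 2 controls, and 6.11, 6.11 and 6.21 in day 2 mutants. No mutant array reached a control array of its day. The reading fell over both days by 0.83 ± 0.15 (SE, adjusted p = 0.00514). The Serpina1d probe read 9.06 and 9.53 in day 0 controls, 8.84, 9.24 and 9.36 in day 0 mutants, 9.42, 9.49 and 9.21 in day 2 controls, and 8.54, 8.84 and 8.86 in day 2 mutants. Its groups overlapped at day 0 and not at day 2, and over both days it stood at -0.39 ± 0.14 (SE, adjusted p = 0.107).

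Serpinc1 encodes antithrombin, the heparin-dependent inhibitor of thrombin and factor Xa. It read 7.55 and 7.70 in day 0 controls, 7.05, 7.12 and 6.91 in day 0 mutants, 7.34, 7.74 and 7.42 in day 2 controls, and 6.86, 6.74 and 7.02 in day 2 mutants, with no overlap on either day. The fall over both days was 1.53-fold (-0.61 ± 0.11 SE, adjusted p = 0.0064), and a second probe of the gene gave -0.90. Serpind1 encodes heparin cofactor II, a further thrombin inhibitor. Its level was 6.82 and 6.95 in day 0 controls, 6.46, 6.61 and 6.16 in day 0 mutants, 7.54, 7.57 and 7.34 in day 2 controls, and 6.50, 6.11 and 6.63 in day 2 mutants. Every mutant lay below every control of its day, and the fall was -0.47 ± 0.20 (SE, adjusted p = 0.298) at day 0 without passing, and -1.07 ± 0.18 (SE, adjusted p = 0.00393) at day 2.

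Serpinf2 encodes alpha-2-antiplasmin, the fast inhibitor of plasmin, and Serpinf1 its neighbour on chromosome 11 encodes pigment epithelium-derived factor, which does not inhibit proteases. Serpinf2 read 7.16 and 7.28 in day 0 controls, 6.73, 6.71 and 6.71 in day 0 mutants, 7.62, 7.64 and 7.29 in day 2 controls, and 6.87, 6.49 and 6.93 in day 2 mutants. Serpinf1 read 6.50 and 6.86, then 6.06, 6.01 and 6.14 at day 0, and 6.62, 6.49 and 5.76, then 5.25, 5.40 and 5.65 at day 2, controls first. Neither gene had overlapping groups on either day. Over both days Serpinf2 fell by 0.63 ± 0.12 (SE, adjusted p = 0.00721) and Serpinf1 by 0.74 ± 0.17 (SE, adjusted p = 0.0192), and the second Serpinf1 probe gave -0.80. With slide as a block the day 2 fall of Serpinf1 was -0.86 (adjusted p = 0.0567).

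Serping1 encodes the C1 inhibitor, which restrains the first complement component and plasma kallikrein. Its level was 4.42 and 4.49 in day 0 controls, 3.24, 3.44 and 4.63 in day 0 mutants, 4.11, 3.83 and 3.63 in day 2 controls, and 2.78, 2.25 and 2.71 in day 2 mutants. The third day 0 mutant lay above both controls, and all other mutants lay below the controls of their day. Serping1 fell over both days by 0.98 ± 0.25 (SE, adjusted p = 0.0285) and 2.42-fold at day 2, and without that mutant it also passed at day 0 (-1.11 ± 0.22 SE, adjusted p = 0.0247). Serpina10 encodes the protein Z-dependent inhibitor of factor Xa. It read 1.96 and 1.95 in day 0 controls, 1.94, 2.04 and 2.65 in day 0 mutants, 1.42, 1.64 and 1.78 in day 2 controls, and 1.24, 1.53 and 1.51 in day 2 mutants. The groups overlapped on both days, and the difference was 0.04 ± 0.15 (SE, adjusted p = 0.908), with -0.22 from a second probe.

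Under the authors' RMA scaling the day 2 differences of these inhibitors were smaller but kept their sign. Serpinc1 stood at -0.26 (adjusted p = 0.36), Serpinf2 at -0.37 (adjusted p = 0.164), Serpinf1 at -0.49 (adjusted p = 0.152) and Serpina1c at -0.35 (adjusted p = 0.367), none of which passed. Serpind1 passed there (-0.71, adjusted p = 0.0338), as did Serping1 (-1.13, adjusted p = 0.047). Over both days Serpina1b, Serpina1c, Serpinc1, Serpind1 and Serpinf2 passed in each of the 22 alternative settings.

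**Figure D2:**
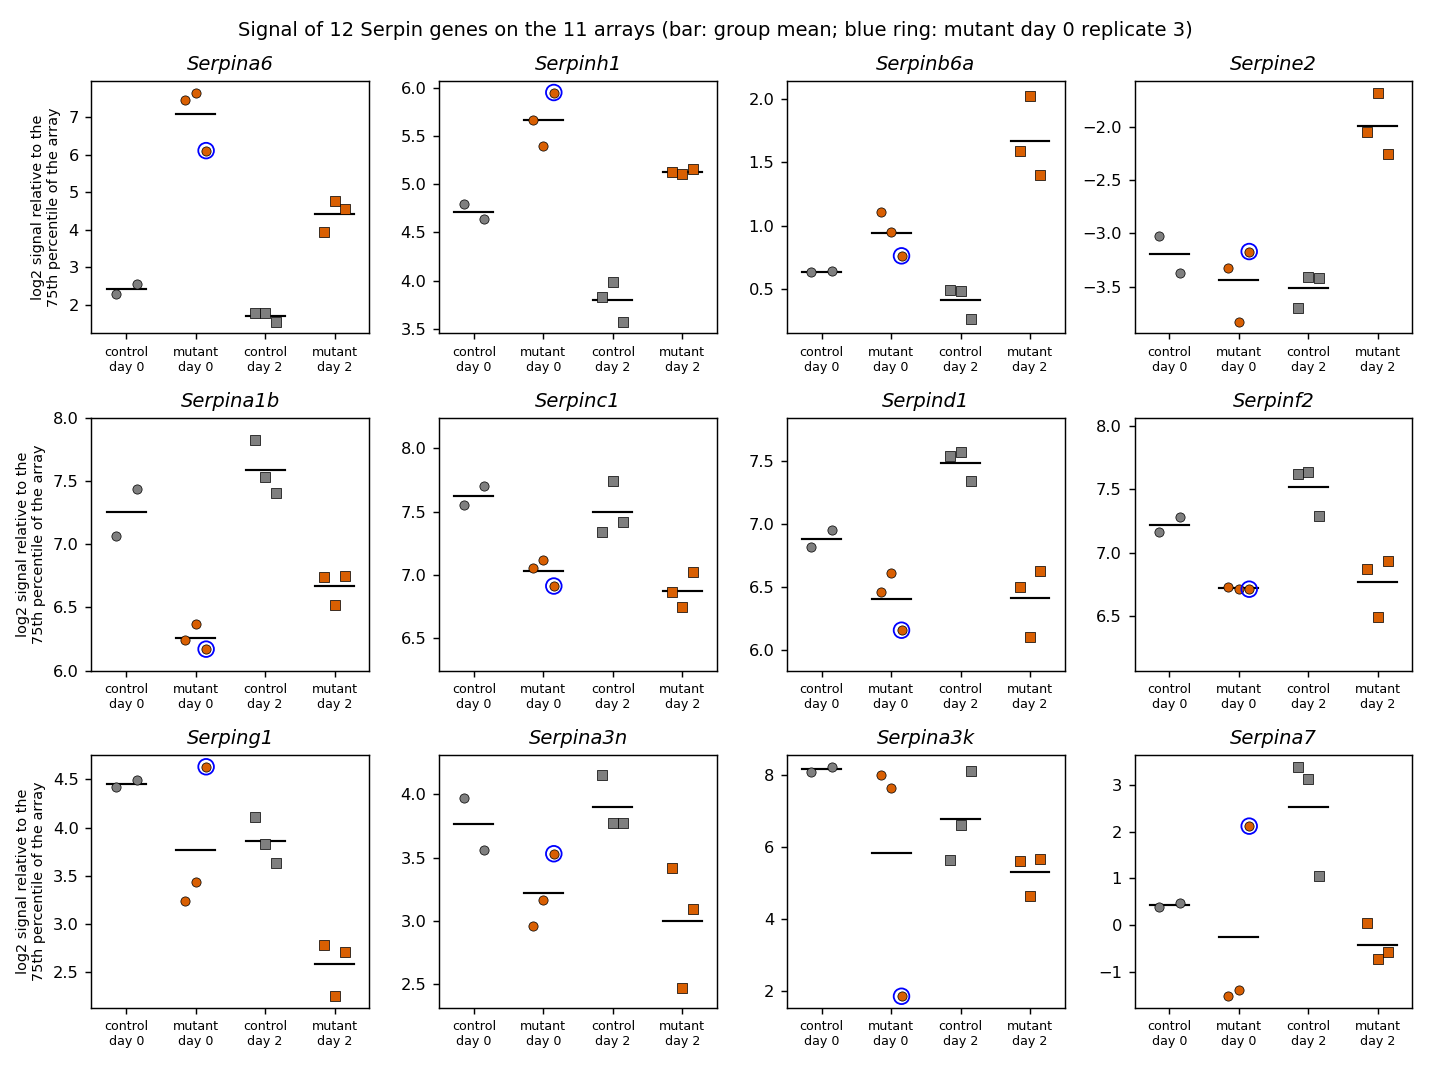
Signal of 12 Serpin genes on each array (vertical axis, log2 over the array's 75th percentile, a separate scale for each gene) by genotype and day, with a bar at each group mean and a blue ring on mutant day 0 replicate 3. Serpina6 runs from 3.93 to 7.66 in mutants and from 1.54 to 2.56 in controls, and the ringed array is far from its group for Serpina3k (1.85) and Serpina7 (2.12).

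Of 15 tested genes for plasma proteases that serpins meet, 10 fell, 1 rose and 4 did not pass over both days, with a median of -0.67. Coagulation factor IX (F9) fell by 0.77 ± 0.10 (SE, adjusted p = 0.000946) and plasminogen (Plg) by 1.03 ± 0.19 (SE, adjusted p = 0.00647). Plat, the tissue-type plasminogen activator, rose by 1.03 ± 0.18 (SE, adjusted p = 0.00589). Of 22 inhibitors from other families, 6 fell and 2 rose, against 7 and 4 without mutant day 0 replicate 3. The rises were Spint1, a membrane-bound inhibitor of epithelial serine proteases (3.75, adjusted p = 1.49e-05), and Wfdc2 (2.01, adjusted p = 8.59e-05), and the fall with the smallest p was Itih4 (-1.19, adjusted p = 0.00328). Among 10 cofactors and receptors of serpin complexes, none rose and Lrp1, which clears many protease complexes, and Sdc4 fell (-0.76 and -0.74). None of 12 genes for quality control in the secretory pathway, through which plasma serpins pass, passed over both days by limma. The smallest adjusted p was 0.187 (Lman1), 0 had an unadjusted p under 0.05, and 0 passed without mutant day 0 replicate 3.

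The hepatocyte markers moved in the same direction as the plasma inhibitors. Of the 10, 5 fell (8 without mutant day 0 replicate 3) and none rose over both days, with a median of -0.68, including Tat (-2.21) and Apoa1 (-0.79). Of 12 transcription factors known to drive serpin genes in hepatocytes, 3 rose and 1 fell over both days, and without mutant day 0 replicate 3 the counts were 3 and 7. The rises included Nr5a2 at 0.68, and Cebpa fell by 0.64. Of 9 duct cell markers 8 rose and 1 fell, with a median of 1.58, and their mean level ran from -0.81 to 0.29 on control arrays and from 1.42 to 2.16 on mutant arrays. The part of these cell type differences in the serpin results was not tested.

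The cluster of clade a genes on chromosome 12 held 19 of the genes on the array, 17 of them tested, with first probe positions spread over 798638 bases (mm8). Serpina6 lies beside Serpina10 and near the Serpina1 group, and it was the only gene of the cluster that rose in mutants against controls over both days, at day 0 or at day 2. Serpina1b, Serpina1c and Serpina3n fell over both days, and 13 genes did not pass, where 8.79% of all genes rose and 6.93% fell. The median of the 17 was -0.57.

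**Figure D3:**
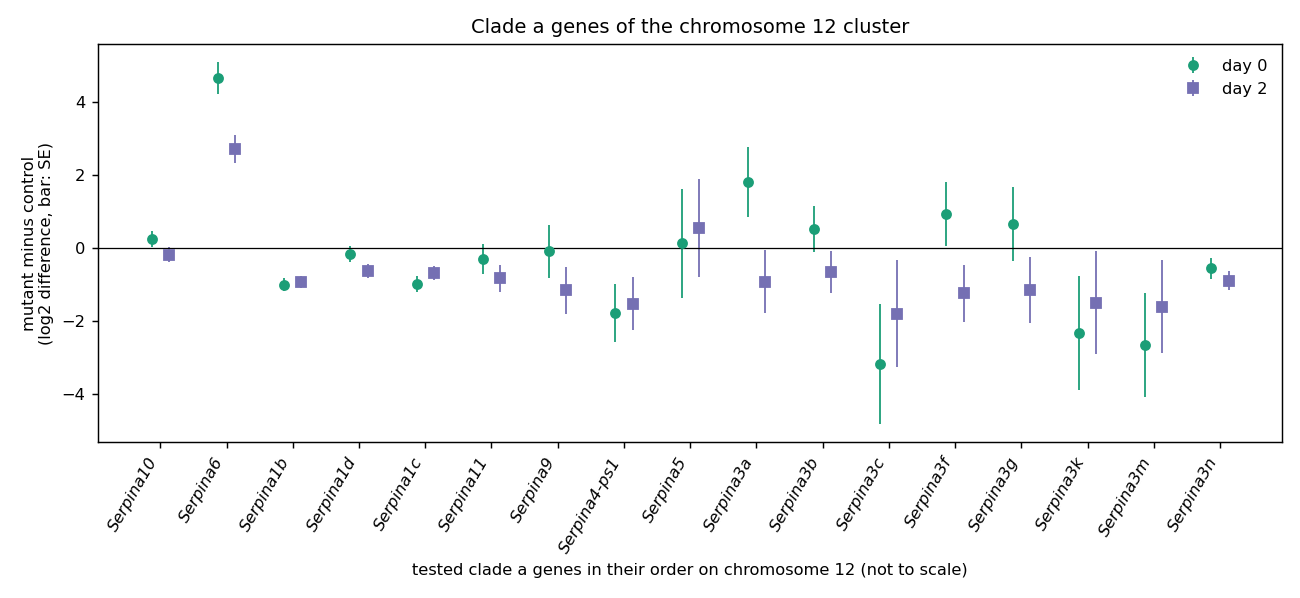
Mutant minus control differences in log2 units, with standard errors, at day 0 (circles) and day 2 (squares) for the 17 tested clade a genes in their order along chromosome 12. Serpina6 stands at 4.66 and 2.72, next to Serpina10 at 0.25 and -0.18 and close to Serpina1b at -1.0 and -0.92.

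Serpina3n is a mouse counterpart of alpha-1-antichymotrypsin, an acute phase protein. It read 3.97 and 3.56 in day 0 controls, 2.96, 3.16 and 3.53 in day 0 mutants, 4.15, 3.77 and 3.77 in day 2 controls, and 3.42, 2.47 and 3.09 in day 2 mutants. All mutants lay below all controls of their day, the third day 0 mutant only just. The fall over both days was 0.73 ± 0.20 (SE, adjusted p = 0.0346), and it passed in 10 of the 22 alternative settings.

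Serpina3k, Serpina3m and Serpina3c, further copies of that gene, had wide spreads. Serpina3k read 8.07 and 8.22 in day 0 controls, 7.99, 7.62 and 1.85 in day 0 mutants, 5.64, 6.60 and 8.11 in day 2 controls, and 5.60, 4.63 and 5.65 in day 2 mutants. Day 2 controls were spread widely, and the third day 0 mutant lay far below every other array. Over both days the difference was -1.90 ± 1.05 (SE, adjusted p = 0.265). Serpina3m stood at -2.13 ± 0.96 (SE, adjusted p = 0.172) and Serpina3c at -2.48 ± 1.10 (SE, adjusted p = 0.167), and the third day 0 mutant read 1.57 and -1.98 for them, below all others. Without that array Serpina3m passed (-1.21 ± 0.37 SE, adjusted p = 0.0453), whereas Serpina3k and Serpina3c stood at -0.91 and -1.45 and did not.

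Serpina3f and Serpina3g are copies that leukocytes also express. On the same array Serpina3f read 0.74, against -3.0 and -2.42 in the other day 0 mutants, and Serpina3g read 4.99, against 0.87 and 1.00. With all arrays the differences over both days were -0.15 ± 0.59 (SE, adjusted p = 0.896) and -0.25 ± 0.67 (SE, adjusted p = 0.85). Without it both genes passed, at -0.73 (adjusted p = 0.0172) and -0.92 (adjusted p = 0.00258). Serpina5, the protein C inhibitor, read 1.53 and -0.36 in day 0 controls and 2.47, 2.62 and -2.96 in day 0 mutants, and from -4.12 to -1.93 on all day 2 arrays. Its groups overlapped on both days.

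Serpinh1 encodes HSP47, the endoplasmic reticulum chaperone of collagen, and does not inhibit proteases. It read 4.79 and 4.64 in day 0 controls, 5.66, 5.40 and 5.95 in day 0 mutants, 3.83, 3.98 and 3.57 in day 2 controls, and 5.13, 5.10 and 5.16 in day 2 mutants. Every mutant array lay above every control array of either day. The rise was 1.94-fold at day 0 (0.95 ± 0.19 SE, adjusted p = 0.0359) and 2.53-fold at day 2 (1.34 ± 0.17 SE, adjusted p = 0.000907). With slide as a block the day 0 rise was 0.94 (adjusted p = 0.0945). The gene also fell from day 0 to day 2 in controls, by 0.92 ± 0.19 (SE, adjusted p = 0.0189).

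Stellate and mesenchymal cells are the main collagen-producing cells of liver, and their 10 markers gave no call over both days (limma, median 0.39, 2 with an unadjusted p under 0.05, 0 passing without mutant day 0 replicate 3). At day 2 Lum (1.19) and Des (0.69) rose and Col1a1 stood at 1.46 (adjusted p = 0.0986). Without that array 6 of the 10 rose at day 2 (median 0.71 both with and without it), as only the pooled spread changed. The mean level of the 10 markers ran from 1.34 to 2.37 on control arrays and from 1.71 to 2.72 on mutant arrays. Its part in the Serpinh1 result was not tested.

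Serpine2 encodes protease nexin-1, a cell-associated inhibitor of thrombin and plasminogen activators. It read -3.02 and -3.37 in day 0 controls, -3.32, -3.83 and -3.17 in day 0 mutants, -3.70, -3.41 and -3.42 in day 2 controls, and -2.05, -1.68 and -2.26 in day 2 mutants. The day 0 groups overlapped, and the day 2 mutants lay above all other arrays. The difference was -0.25 ± 0.25 (SE, adjusted p = 0.667) at day 0 and 1.51 ± 0.22 (SE, adjusted p = 0.00207), or 2.85-fold, at day 2. The change between the days was 1.76 with a 95% interval from 1.02 to 2.51, and it did not pass after adjustment (adjusted p = 0.0617). Without mutant day 0 replicate 3 it was 1.90 ± 0.32 (SE, adjusted p = 0.0333).

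Mutant day 0 replicate 3 also stood apart for Serpinb6b, a clade b copy of Serpinb6a, at 1.48 against -1.16 and -0.95 in the other day 0 mutants and from -1.46 to -0.71 in controls. Over both days Serpinb6b stood at 0.36 ± 0.43 (SE, adjusted p = 0.634) with that array and -0.06 ± 0.12 (SE, adjusted p = 0.749) without it. On that array the mean level of 10 granulocyte markers was 4.93. It was 3.82 and 3.64 in the other day 0 mutants and 4.41 and 5.03 in day 0 controls. For 8 megakaryocyte and platelet markers that array read 2.39, against 0.95 and 0.48 in those mutants and 1.89 and 2.26 in those controls. For 9 macrophage markers it read 1.27, against 2.03 and 2.18 in those mutants and 2.57 and 2.35 in those controls. Over both days with all arrays none of the megakaryocyte markers rose and 2 of 8 fell, and of the macrophage markers 3 of 9 fell, Csf1r among them (-0.61). Without that array 8 of 8 and 5 of 9 fell. Of 8 erythroid markers 3 fell (median -0.99), or 7 without that array, and their mean level ran from 3.20 to 3.83 in controls and from 1.61 to 3.53 in mutants. In each of 4 further lists none rose and 1 fell: lymphoid and NK cells (of 6), endothelium (of 8, with 3 lower without that array), squamous epithelium (of 5, Trp63) and pancreatic acini (of 4, Amy2a5). Of 9 leukocyte proteases that serpins meet, Mcpt8 fell (-1.21), and 4 fell without that array. The part of these cell types in the serpin readings was not tested.

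Clade b fell into 2 chromosomal groups. Of the 8 tested genes on chromosome 13, Serpinb6a and Serpinb6c rose and none fell over both days, with a median of 0.05. The 4 tested genes on chromosome 1 gave no call and a median of -0.79. Of all genes, 8.79% rose and 6.93% fell. Without mutant day 0 replicate 3, Serpinb1a, Serpinb1b and Serpinb1c of chromosome 13 passed as lower. So did Serpinb2 and Serpinb10 of chromosome 1, beside 25.7% of all genes called in either direction. Serpinb6a is the mouse counterpart of human SERPINB6, an intracellular inhibitor of trypsin-like proteases and cathepsin G, and Serpinb6c is a copy of it. Serpinb6a read 0.63 and 0.64 in day 0 controls, 1.11, 0.95 and 0.76 in day 0 mutants, 0.49, 0.48 and 0.26 in day 2 controls, and 1.59, 2.03 and 1.40 in day 2 mutants. The groups did not overlap on either day. The rise was 2.40-fold at day 2 (1.26 ± 0.18 SE, adjusted p = 0.00178), and at day 0 the difference of 0.31 did not pass (adjusted p = 0.518).

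Serpinb6c read -1.99 and -2.22 in day 0 controls, -1.68, -1.94 and -1.42 in day 0 mutants, -2.21, -1.90 and -2.64 in day 2 controls, and -1.23, -0.89 and -1.64 in day 2 mutants. These groups did not overlap on either day. The rise over both days was 0.71 ± 0.19 (SE, adjusted p = 0.0307), and it passed in 14 of the 22 alternative settings.

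The remaining clade b genes tested included several that are abundant in myeloid cells. Serpinb1a, an inhibitor of neutrophil elastase and related proteases, read 3.30 and 4.11 in day 0 controls, 2.70, 2.76 and 4.44 in day 0 mutants, 2.50, 2.62 and 2.67 in day 2 controls, and 2.31, 2.55 and 2.10 in day 2 mutants. Groups overlapped on both days, and the difference was -0.34 ± 0.32 (SE, adjusted p = 0.533). Without mutant day 0 replicate 3 it passed over both days at -0.63 (adjusted p = 0.0247), as did Serpinb1b (-0.79), Serpinb1c (-0.75), Serpinb2 (-1.11) and Serpinb10 (-1.01). None of 10 granulocyte markers passed over both days by limma with all arrays (median -0.50, 4 with an unadjusted p under 0.05), and 9 fell without that array. Serpinb9, which protects cytotoxic cells from granzyme B, differed by 0.07 ± 0.23 (SE, adjusted p = 0.871), with overlapping groups on both days. Serpinb3c fell 2.45-fold at day 2 (-1.30 ± 0.33 SE, adjusted p = 0.0281), from -3.12, -2.80 and -4.12 in controls to -4.24, -4.70 and -4.99 in mutants, with no overlap. The difference was 0.40 ± 0.37 (SE, adjusted p = 0.654) at day 0.

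Leaving out mutant day 0 replicate 3 raised the number of serpins that passed over both days from 13 to 22, all of the additional 9 being lower in mutants. They were Serpina3f, Serpina3g, Serpina3m, Serpina7, Serpinb10, Serpinb1a, Serpinb1b, Serpinb1c and Serpinb2, and all 13 earlier genes still passed. The background rose as well, from 15.7% to 25.7% of genes. At day 0 the count went from 3 to 8 (2 higher, 6 lower) while the background went from 2.3% to 5.62%, and at day 2 it went from 14 to 23 beside 29.9%. No day 2 difference changes when that array is left out, so the added day 2 calls come from a smaller spread pooled over the groups. Leaving out control day 0 replicate 1 or 2, mutant day 0 replicate 1 or mutant day 2 replicate 1 left 1 serpin at day 0, namely Serpina6. Leaving out control day 0 replicate 2 left 8 over both days. For these last counts the share of all genes is not given.

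**Figure D4:**
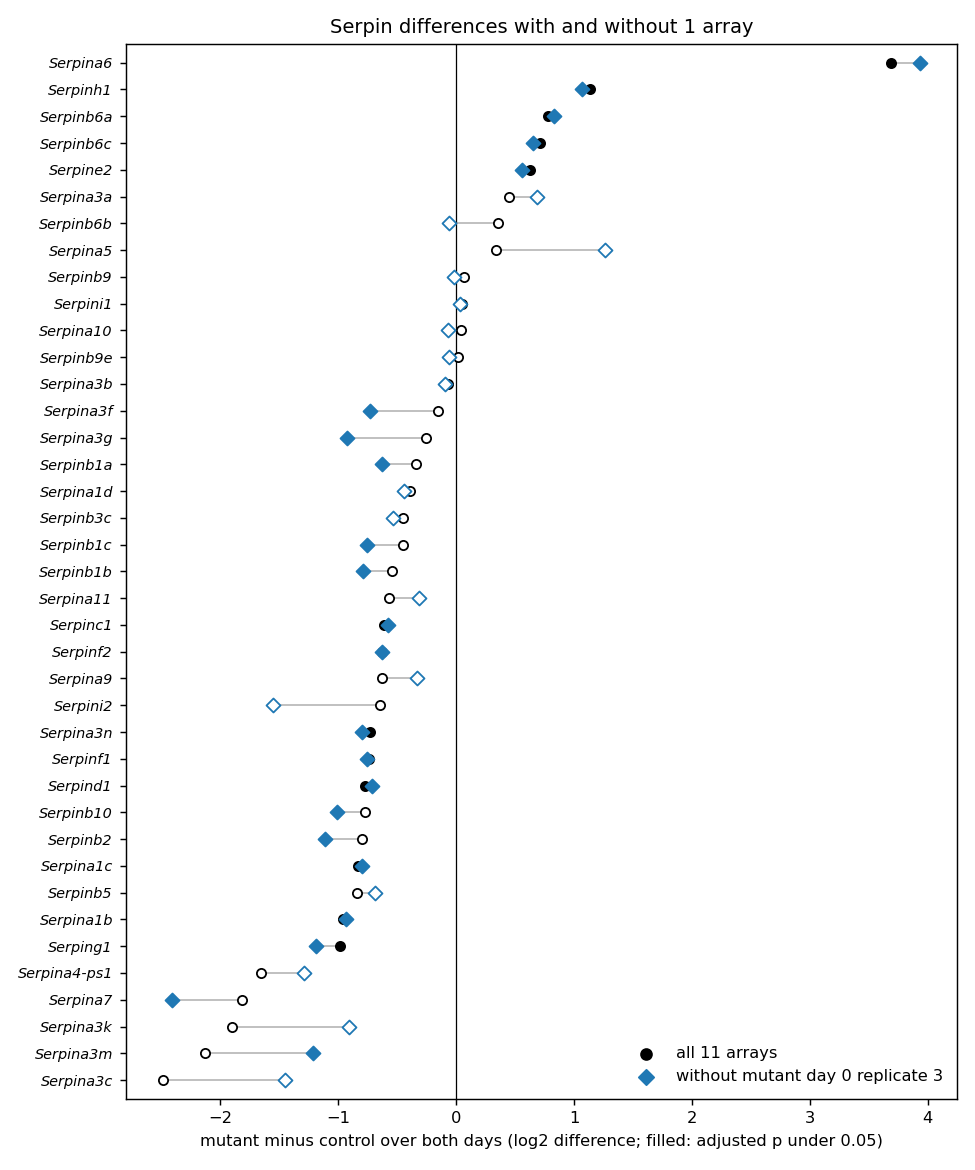
Mutant minus control differences over both days in log2 units for 39 of the 40 tested Serpin genes with all 11 arrays (circles) and without mutant day 0 replicate 3 (diamonds), filled where the adjusted p was under 0.05. The 5 rises and 8 falls of the full set stay filled, and 9 further genes are filled without that array, all of them lower in mutants.

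The change from day 0 to day 2 was compared within each genotype. Day 0 controls were all male and day 0 mutants all female, whereas each day 2 group had both sexes. Day and sex are therefore partly mixed in these comparisons and in the difference between the days. In controls 3 serpins passed, all lower at day 2, beside 11.2% of all genes (5.46% higher and 5.72% lower), and in mutants 13 passed, 10 lower and 3 higher at day 2, beside 20.7% (9.39% higher and 11.3% lower). The 2 comparisons share no arrays. In controls these were Serpinh1, Serpina4-ps1 and Serpinb5. Serpina4-ps1, annotated as a pseudogene, read -0.50 and -1.48 in day 0 controls, -2.11, -1.98 and -4.23 in day 0 mutants, -5.91, -5.11 and -3.65 in day 2 controls, and -5.71, -6.91 and -6.60 in day 2 mutants, where 2 of 3 controls and 1 of 3 mutants were well above background. It stood lower at day 2 in controls by 3.90 ± 0.80 (SE, adjusted p = 0.0189) and in mutants by 3.63 ± 0.72 (SE, adjusted p = 0.0102). Only the day 0 groups were well above background throughout, and the gene entered the test through them. Its passing is therefore no support for a difference. Day 2 mutants 2 and 3 read below the dimmest signal above background on their arrays, so the size in mutants rests partly on background. Serpinb5, known as maspin, was well above background in day 0 controls alone, through which it entered the test, so its passing is no support for a difference. It was at least 1.43-fold lower in day 2 controls, with the day 2 level set no lower than the dimmest signal above background. Leaving out control day 0 replicate 1 or 2 left no call in controls, control day 2 replicate 2 left 1, and without mutant day 0 replicate 3 there were 14, 3 higher and 11 lower, beside 27.3% of all genes. The differences in controls are the same with and without that mutant array, and only the pooled spread changed.

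In mutants Serpina10, Serpina11, Serpina3a, Serpina3b, Serpina4-ps1, Serpina6, Serpinb3c, Serpinb9e and Serping1 fell, and the rises were Serpinb6a, Serpine2 and Serpini1, the gene for neuroserpin. As stated above, the passing of Serpina4-ps1 is no support for a difference. Serpina11 fell by 1.66 ± 0.37 (SE, adjusted p = 0.0159), from 6.10, 6.23 and 4.62 to 4.03, 3.79 and 4.14. Serpina3a, another alpha-1-antichymotrypsin copy, fell 15.9-fold (adjusted p = 0.0143), from -0.85, -1.83 and -2.79 to -5.67, -6.18 and -5.60. The dimmest signals above background on those day 2 arrays were -6.17, -6.19 and -6.38, so these readings lie near the floor. The size depended on processing, with a difference of -2.77 in the authors' RMA table and from -4.48 to -2.41 over the alternatives. It passed in 20 of 21 of them. The probe matched no listed accession. Serpine2 rose 2.72-fold (adjusted p = 0.00426) and passed in each of the 22 alternative settings. Serpini1 rose 1.41-fold (adjusted p = 0.0318) but passed in only 13 of the 22, with differences from 0.01 to 0.73. With slide as a block Serpini1 stood at 0.50 (limma, adjusted p = 0.0521). Serpinb5, also among the 10, was not well above background on any mutant array of either day, so it is not described as a fall and no size is given. The counts without mutant day 2 replicate 1, 2 or 3 were 6, 6 and 8, with the share of all genes not given. No serpin passed for the difference between the days in the mutant effect (limma, 5 with an unadjusted p under 0.05, beside 0.27% of all genes called, 0.232% higher and 0.0376% lower), while 2 passed with array weights. Without mutant day 0 replicate 3, 2 passed beside 1.73% of all genes, Serpina6 and Serpine2.

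Promoters of 300 bases, from 250 before to 50 after the start of the gene, were matched by symbol in RefSeq (build GRCm38.p6) for 45 of the 55 genes, and Serpina6 was not among them. They were searched on both strands for TGGGAA, the core recognised by RBPJ, through which NICD acts on DNA, and for GTTAAT, a motif of the hepatocyte factor HNF1. The motifs do not overlap each other. The RBPJ core was in 15 of 45 serpin promoters (33.3%), beside 28.3% of the 27025 genes in the table. It was in 2 of the 7 matched genes that fell over both days, Serpina3n and Serpinf2, and in none of the 4 matched genes that rose. The HNF1 motif was in 9 of 45 (20%), beside 8.24% of all genes, and in 5 of 14 matched clade a genes (35.7%).

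Stretches of 100 bases from 5 of these promoters are shown because their genes fell or were read by the group probes, with the motif in capitals. The first 3 end at the base before the start and carry the HNF1 motif close to it, and the other pair carry the RBPJ core.
Serpina1b: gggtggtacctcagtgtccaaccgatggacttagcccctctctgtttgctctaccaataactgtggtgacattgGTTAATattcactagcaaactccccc
Serpina1c: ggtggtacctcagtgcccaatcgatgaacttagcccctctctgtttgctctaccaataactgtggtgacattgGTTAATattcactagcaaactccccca
Serpina1d: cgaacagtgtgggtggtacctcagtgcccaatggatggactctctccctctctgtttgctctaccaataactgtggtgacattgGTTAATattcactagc
Serpina3n: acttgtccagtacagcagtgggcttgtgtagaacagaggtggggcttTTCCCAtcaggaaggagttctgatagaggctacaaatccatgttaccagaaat
Serpinf2: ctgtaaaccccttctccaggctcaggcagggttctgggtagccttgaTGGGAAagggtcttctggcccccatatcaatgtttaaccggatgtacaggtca
They lie at chr12:103738190-103738289 (minus strand), chr12:103904951-103905050 (minus), chr12:103773634-103773733 (minus), chr12:104406496-104406595 (plus) and chr11:75439622-75439721 (minus). The HNF1 motif begins 26, 27 and 16 bases before the start in Serpina1b, Serpina1c and Serpina1d. The Serpina1b and Serpina1c stretches were 95% identical when aligned, and that of Serpina1d was 75.5% and 74.8% identical to them over a window that begins at another base. In Serpina3n the core shown reads on the opposite strand as TTCCCA. A further core of that promoter begins 28 bases before the start, on the strand of the gene and outside the stretch shown. A match of letters is a description of the window and not a binding site.

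Outside the naming rule, 3 probes were assigned by RefSeq to Serpine3, Serpina3j and Serpinb6d under other names. Serpina3j read 3.04 and 2.96 in day 0 controls, 2.15, 1.67 and -2.35 in day 0 mutants, -0.09, 0.54 and 2.31 in day 2 controls, and -0.41, -1.44 and -0.44 in day 2 mutants, with the third day 0 mutant again lowest. Serpinb6d read from -4.20 to -3.51 in controls, from -3.33 to -3.12 in day 0 mutants and from -3.03 to -2.15 in day 2 mutants. All mutants lay above all controls for that gene, and these readings were not counted among the members.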

How the data were processed

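Whole-liver RNA of 11 samples was hybridised singly to Agilent 1-colour arrays (design 014868). Per the file headers, Feature Extraction 9.5.3.1 gave each spot a background-corrected processed intensity. Per the submitters' processing notes the authors used RMA, and their deposited table holds log2 values with settings not given in the sources used here. Each array's log2 processed intensity was set relative to its 75th percentile, spots of a probe were averaged, and a probe was tested when well above background throughout at least 1 group. Array positions are those of mm8 in the file headers.

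Genes were named through accessions or symbols in RefSeq tables (6305 of 41174 probes had no name), and a gene is given by its brightest passing probe. The 15947 genes were fitted over 4 groups with limma 3.58.1 in R 4.3.3 (eBayes, 7 residual df), with Benjamini-Hochberg adjustment over all genes. The both-day effect is the mean of the 2 day effects. A group with no array above background gives a bound only. The number of arrays limits the precision. On simulated data with 15741 genes, the both-day comparison called 62 of 100 genes given a change of 1 log2 unit, 84 of 100 given 2, and 6 given none. For a change of 1 log2 unit, 37 of the 100 were called at day 0 and 43 at day 2. The simulation changed a far smaller share of genes than was called here and had no deviating array. These shares therefore need not carry over to the real data.

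The members, gene lists and tests were chosen with earlier results of these data known. Named were every serpin past the threshold in any of 6 comparisons, a preset list of plasma and intracellular serpins whatever their values, and up to 3 genes per list by smallest p. Replicate numbers are slide numbers. Deviations of same-numbered day 2 arrays correlated at 0.281, 0.226 and 0.258, and those of day 0 arrays at 0.0607 and 0.0913. Slide was therefore fitted as a block in an alternative setting. The main fit has no block. Alternatives were normexp background, quantile scaling, the RMA table, filters, probe choice, array weights, robust variance, pup sex, slide and leaving out each array. Some single-gene results are not reported here.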

Additional observations from a re-analysis of the deposited data

How the results depend on the processing

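No gene that passed reversed its direction in that comparison under the 22 alternatives. Of the single-gene values 827 stayed on their side of the threshold and 179 did not. Over both days Serpina1b, Serpina1c, Serpina6, Serpinb6a, Serpinc1, Serpind1, Serpinf2 and Serpinh1 passed under every alternative (8 of 13). At day 0 that held for 1 of 3 genes, at day 2 for 5 of 14, between days in mutants for 4 of 13, and between days in controls for 0 of 3. With array weights 21 serpins passed over both days, 9 at day 0, 2 for the difference between days and 13 between days in controls. With the replicate block (slide) 1 passed at day 0, and it moved no other count of calls by over 1.5 times. With pup sex as a covariate 1 passed at day 0 and 0 between days in controls (limma), and at day 0 that term cannot separate sex from genotype. With genes above background on all 11 arrays 1 passed between days in controls. At day 2 quantile normalization gave 7 and the authors' deposited RMA values gave 8, and the all-gene median went from -0.10 to -0.02 and -0.03. Leaving out 1 array gave 8 to 22 over both days, 1 to 8 at day 0, 7 to 23 at day 2, 0 to 2 for the difference between days, 0 to 14 between days in controls and 6 to 15 between days in mutants. Apart from what fewer arrays or genes entail, the cause was not tested. The counts in this section stand without the share of all genes called, so they do not set serpins apart from genes at large. Low signal left 15 members untested.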
